A study of Mus musculus with 3 samples.

Results

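Neutrophils are drawn into a fresh skin wound by a small family of CXC chemokines that share 1 receptor. The 6 mouse genes examined here are the ligands *Cxcl1*, *Cxcl2*, *Cxcl3*, *Cxcl5* and *Ppbp* and the receptor *Cxcr2*, 6 of the 32285 genes in the count tables. They were chosen by name for their known role, with earlier results of these data known, and matched by Ensembl identifier. The ligands carry a Glu-Leu-Arg motif ahead of the paired cysteines, bind the G protein-coupled receptor *Cxcr2* on neutrophils and guide these cells along a gradient from the vessel to the injury. *Cxcl1*, *Cxcl2*, *Cxcl3* and *Cxcl5* are switched on by inflammatory cytokines such as interleukin 1 and tumour necrosis factor, chiefly through NF-kappaB, and their mRNAs are short-lived. *Ppbp* encodes platelet basic protein, the precursor from which the neutrophil attractant also called CXCL7 is cut, and is best known from platelets and megakaryocytes.

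The study took cells from healing skin wounds of C57BL/6J mice 3, 7 and 14 days after injury and sequenced their mRNA cell by cell, to follow the cells of the wound from inflammation to scar. Each day is 1 library, so there were 3 groups of 1 sample, with no unwounded skin and no other genotype or treatment. The study's methods describe males aged 7 to 12 weeks with 4 full-thickness excisional wounds and wound tissue pooled from 4 samples, whereas the text deposited with the series calls the wounds incisional. The tissue was digested with enzymes for 1 h and cleared of red blood cells and debris. The 3 libraries held 5158 to 22924 cell barcodes and 38133650 to 120940799 UMIs (unique molecular identifiers, each marking 1 captured mRNA molecule), with medians of 3026.5 to 5177 UMIs per barcode, and 37460 cells were kept. Day and library cannot be told apart, and every ratio of days below compares 2 libraries. No p-value is given, and the 95% intervals, throughout, cover only the error of counting.

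Levels are given in CPM, the number of UMIs a gene had among each 1000000 UMIs of the class or library in question. The libraries count 3′ ends, so a longer mRNA does not gather more UMIs, though genes may differ in capture. A sum over all cells moves with the number of cells of each type and with the level within them, so the share of each class and the level within it are given apart below. Cells were clustered without the 6 genes, and clusters were named from marker lists as neutrophil-like, macrophage-like, fibroblast-like and so on.

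The 5 ligand genes lie in 1 chemokine cluster. On mouse chromosome 5 (GRCm38) *Cxcl5* spans bases 90759298 to 90761625, *Ppbp* 90768518 to 90770063, *Cxcl3* 90786101 to 90788093, *Cxcl1* 90891245 to 90893121 and *Cxcl2* 90903899 to 90905938, a stretch of 146.6 kb for the 5 genes. *Cxcr2* lies apart on chromosome 1, at bases 74153994 to 74161246. The identifiers are ENSMUSG00000029371 for *Cxcl5*, ENSMUSG00000029372 for *Ppbp*, ENSMUSG00000029379 for *Cxcl3*, ENSMUSG00000029380 for *Cxcl1*, ENSMUSG00000058427 for *Cxcl2* and ENSMUSG00000026180 for *Cxcr2*. *Cxcl1*, *Cxcl2* and *Cxcl3* are close relatives of one another, and how far the counting separated their reads was not tested.

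The promoters of *Cxcl1*, *Cxcl2* and *Cxcl3* are shown because these 3 genes shared sequence just ahead of their start and then parted in level over the days. Each line gives the 110 bases before the annotated start on the plus strand (RefSeq, GRCm38.p6), at chr5:90891135-90891244, chr5:90903789-90903898 and chr5:90785991-90786100 in that order. The first run of capitals marks GGGAATTTCCC, the longest run of letters that the 3 stretches share (11 bases) and a kappaB-type motif, and the second marks ATAAAAG, which resembles the TATA box of many inducible genes.
Cxcl1: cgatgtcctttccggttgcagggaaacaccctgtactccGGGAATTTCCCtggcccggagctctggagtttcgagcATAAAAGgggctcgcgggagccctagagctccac
Cxcl2: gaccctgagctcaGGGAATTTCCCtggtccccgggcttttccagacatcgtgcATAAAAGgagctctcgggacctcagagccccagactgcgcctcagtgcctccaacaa
Cxcl3: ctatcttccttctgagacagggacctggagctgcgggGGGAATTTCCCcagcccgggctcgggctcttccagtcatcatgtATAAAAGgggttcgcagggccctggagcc

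The kappaB-type letters began 71 bases before the start in *Cxcl1*, 97 in *Cxcl2* and 73 in *Cxcl3*, and the letters ATAAAAG 34, 57 and 29 bases before it. Both were chosen because these 3 sequences hold them, and were searched on both strands of windows of 300 bases, from 250 before to 50 after the start. Among 32851 such windows in the RefSeq table, 14 (0.0426%) held GGGAATTTCCC and 1779 (5.42%) held ATAAAAG, and 3 (0.00913%) held both, those of *Cxcl1*, *Cxcl2* and *Cxcl3*. The window of *Ppbp* held only ATAAAAG, on the minus strand 86 bases before the start, and that of *Cxcr2* held neither. The window of *Cxcl5* was not analysed here.

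The neutrophil-like share was lower on each later day, while the summed ligand CPM was lower on Day 7 but not lower again on Day 14. Neutrophil-like cells made up 19.8% of cells on Day 3 (865 cells, interval 18.7% to 21.1%), 8.43% on Day 7 (1651 cells, 8.04% to 8.83%) and 0.155% on Day 14 (21 cells, 0.0962% to 0.238%). All 9 markers of that list were higher in these cells than in all other cells on every day. The clusters were named from these same markers, so this largely follows from the naming and is no separate support for it. The 5 ligands together stood at 7456 CPM on Day 3, 3680 CPM on Day 7 and 4657 CPM on Day 14. The sum was highest on Day 3 and slightly higher on Day 14 than on Day 7, while the log2 ratio of the neutrophil-like share between those 2 libraries was -5.76. The log2 ratio of the sum was -1.02 for Day 7 over Day 3 and 0.34 for Day 14 over Day 7. The second of these turned to -0.23 when each cell's CPM was averaged over cells, which gives small cells equal weight. The direction of the neutrophil-like share was the same in every setting tried, but its log2 ratio for Day 7 over Day 3, -1.24, was -2.41 with a minimum of 500 genes per cell and -3.92 with that minimum and the same classes.

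Under the sum, the members parted into a pair with like levels on all days and a trio that was high on Day 3 alone. *Cxcl1*, which many stromal and epithelial cells can make, was at 1903 CPM on Day 3, 1454 CPM on Day 7 and 2370 CPM on Day 14. *Cxcl2*, known from activated macrophages and neutrophils, was at 3552, 1992 and 2237 CPM on the same days. *Cxcl1* was highest on Day 14 and *Cxcl2* on Day 3, and in these sums neither differed by as much as 2-fold between any pair of libraries. Averaged over cells, both passed 2-fold in 1 comparison. The log2 ratio of *Cxcl2* was then -1.58 for Day 7 over Day 3, and that of *Cxcl1* 1.07 for Day 14 over Day 7.

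*Cxcl3*, a close relative of *Cxcl2*, was at 657 CPM on Day 3, 104 CPM on Day 7 and 35.6 CPM on Day 14. *Cxcl5*, known from epithelial and stromal cells, was at 1306, 119 and 13.3 CPM. *Ppbp* was at 37.8, 10.1 and 0.728 CPM, the last from 71 UMIs. All 3 were highest on Day 3 and lowest on Day 14, and *Cxcl5* had the steepest course of the ligands, 98.4-fold lower on Day 14 than on Day 3. The receptor *Cxcr2* was at 16.8, 8.85 and 0.164 CPM, from 593, 886 and 16 UMIs, and was 102-fold lower on Day 14 than on Day 3. In all, 4 of the 6 members were at least 2-fold lower on Day 14 than on Day 3, where 21.9% of 8844 genes were lower and 9.18% higher. *Ppbp* and *Cxcr2* met the limit on abundance, 10 CPM in 1 of the libraries, only through their Day 3 levels, so the count is partly set by that limit.

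**Figure D1:**
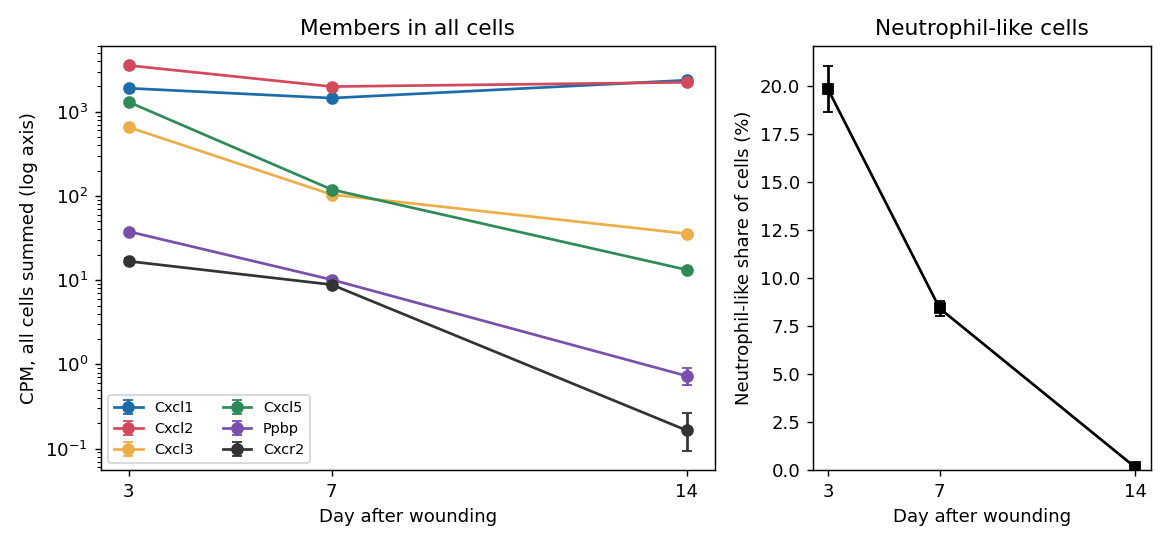
CPM of each of the 6 genes over all kept cells on Days 3, 7 and 14 (log axis, bars are 95% counting intervals), beside the neutrophil-like share of cells in percent. *Cxcl1* and *Cxcl2* lie between 1454 and 3552 CPM on every day, while *Cxcl3*, *Cxcl5*, *Ppbp* and *Cxcr2* are lower on each later day, like the neutrophil-like share (19.8%, 8.43% and 0.155%).

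Between Day 3 and Day 7, 3 of the 6 members were at least 2-fold lower and 0 were higher. Of 8631 genes compared, 8.10% were at least 2-fold lower and 3.88% at least 2-fold higher, and the median log2 ratio was -0.20. The 3 were *Cxcl5* (log2 ratio -3.45), *Cxcl3* (-2.66) and *Ppbp* (-1.90). *Cxcr2* was just inside the limit at -0.92 (interval -1.08 to -0.77) and beyond it at -1.10 with a mitochondrial limit of 5%, -1.52 with a minimum of 500 genes and -2.52 with that minimum and the same classes. *Cxcl2* was at -0.83 and *Cxcl1* at -0.39. Averaged over cells, *Cxcl1* moved to 0.05 and *Cxcl2* to -1.58, and *Cxcl5* to -2.24.

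Between Day 7 and Day 14, 5 of the 6 members were abundant enough to compare, and 3 of the 5 were at least 2-fold lower. Of 8427 genes, 6.10% were that much lower and 4.25% that much higher. *Ppbp* (-3.80), *Cxcl5* (-3.17) and *Cxcl3* (-1.54) were again the lower ones, *Ppbp* passing the limit on abundance only through its Day 7 level of 10.1 CPM. *Cxcl1* was higher by 0.70 and *Cxcl2* by 0.17 log2 units, the latter turning to -0.65 when averaged over cells. *Cxcr2* was under 10 CPM in both libraries and was not counted, and its ratio was -5.75 (-6.57 to -5.05). Averaged over cells, *Cxcr2* was at 53.2 CPM on Day 7 and could be counted, and 1 of the 6 members was at least 2-fold higher (*Cxcl1*, 1.07) and 4 lower (*Cxcl3*, *Cxcl5*, *Ppbp* and *Cxcr2*, from -6.60 to -2.71), where 8.16% of 8569 genes were higher and 7.68% lower. Of the 4 lower, *Cxcl5*, *Ppbp* and *Cxcr2* met the limit of 10 CPM only through Day 7 (8.71, 1.44 and 0.548 CPM on Day 14), so this count too is partly set by that limit.

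**Figure D2:**
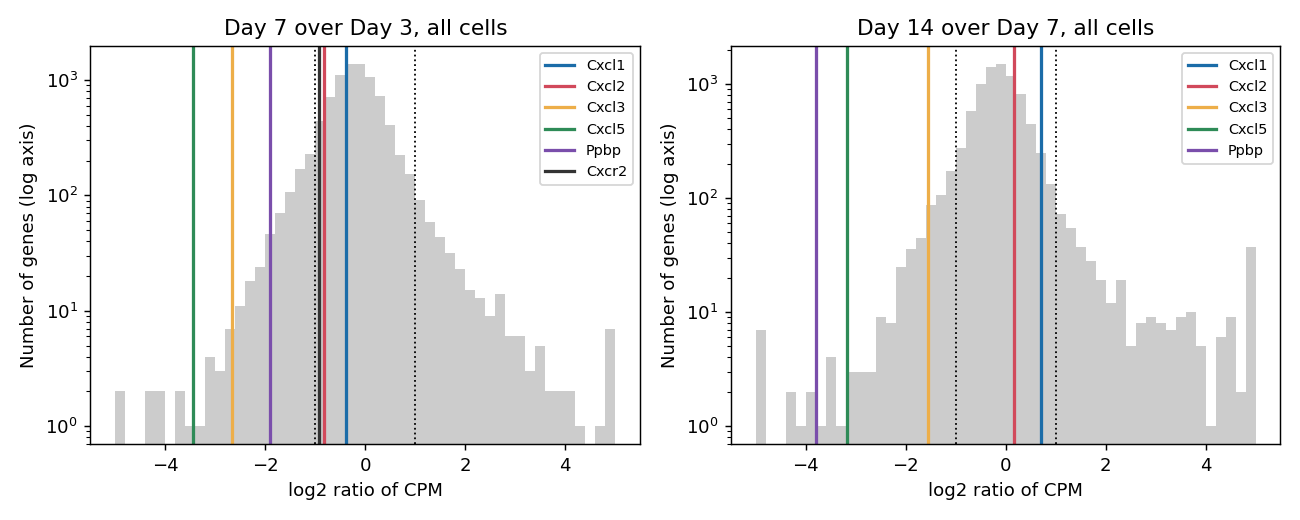
Histograms of the log2 ratio of CPM over all genes compared, for Day 7 over Day 3 and Day 14 over Day 7, with the members as marked lines and dotted lines at 2-fold (values beyond 5 log2 units are drawn at the edge). *Cxcl5*, *Cxcl3* and *Ppbp* lie below the lower 2-fold line in both panels and *Cxcl1* and *Cxcl2* between the lines, and *Cxcr2* is drawn only in the first panel.

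The ligands came from different cells. Most UMIs of *Cxcl1* and *Cxcl5* lay in fibroblast-like cells, though on Day 14 the *Cxcl1* level was higher in pericyte-like cells (7444 against 2875 CPM). Fibroblast-like cells held 87.1%, 91.6% and 89.6% of *Cxcl1* UMIs on Days 3, 7 and 14, and 98.9%, 96.8% and 96.1% of *Cxcl5* UMIs, while they held 55.8%, 63.5% and 73.8% of all UMIs. *Ppbp* was a macrophage gene, with 98.1%, 92.9% and 93.0% of its UMIs in macrophage-like cells. *Cxcr2* was a neutrophil gene, with 92.4% and 86.2% of its UMIs in neutrophil-like cells on Days 3 and 7, and 43.8% of only 16 UMIs on Day 14.

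*Cxcl2* and *Cxcl3* were shared by 3 classes, whose parts differed by day. On Day 3 neutrophil-like cells held 42.4% of *Cxcl2* UMIs and 40.4% of *Cxcl3* UMIs with only 3.34% of all UMIs. On Day 14 they held 0.0962% and 0.173%. The fibroblast-like part of *Cxcl2* was 16.8%, 46.2% and 62.2% over the days, and that of *Cxcl3* 14.4%, 27.5% and 56.2%. Macrophage-like cells held a steadier part, 40.1%, 35.4% and 32.3% of *Cxcl2* and 44.7%, 50.3% and 40.2% of *Cxcl3*.

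**Figure D3:**
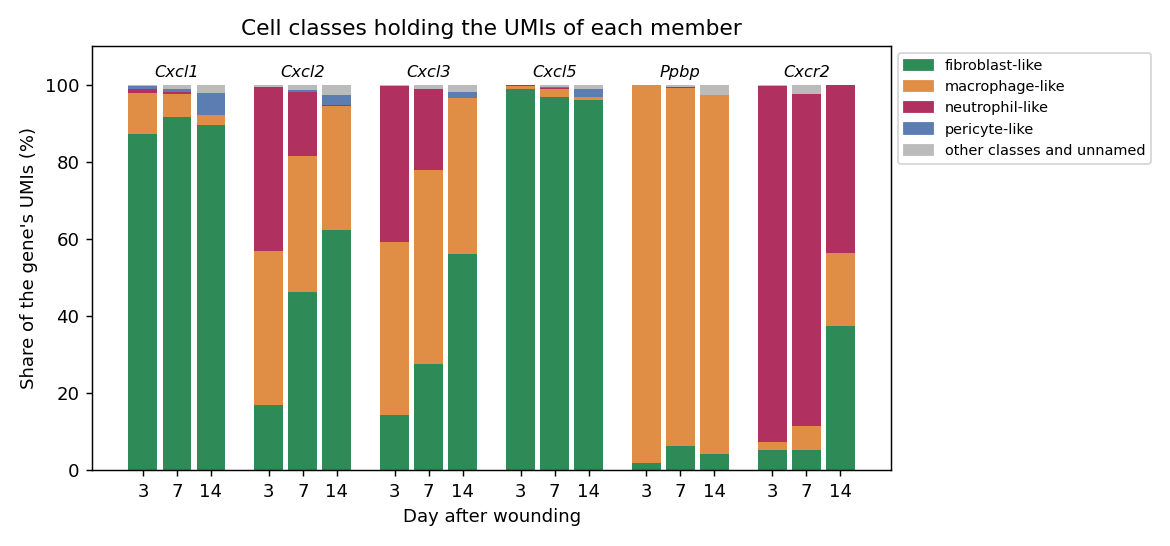
Share of each gene's UMIs, in percent, that came from each class of cells on Days 3, 7 and 14, as stacked bars from 0 to 100. The neutrophil-like part of *Cxcl2* goes from 42.4% on Day 3 to 0.0962% on Day 14 while the fibroblast-like part goes from 16.8% to 62.2%, and *Cxcl5* and *Cxcl1* are mostly fibroblast-like on every day.

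On Days 3 and 7 neutrophil-like cells had the highest *Cxcl2* and *Cxcl3* levels of all classes with at least 50 cells. *Cxcl2* was at 44998 CPM in them on Day 3 (44616 to 45382), 25163 CPM on Day 7 and 7813 CPM on Day 14 (6792 to 8945). *Cxcl3* was at 7939, 1670 and 223 CPM, the last from 6 UMIs in 21 cells. Both were highest on Day 3 and lowest in the few cells of Day 14.

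From Day 3 to Day 7 the log2 ratio in neutrophil-like cells was -0.84 for *Cxcl2* and -2.25 for *Cxcl3*. With a minimum of 500 genes these were -1.98 and -3.30, and with no doublets removed *Cxcl2* was at -1.23. Both settings changed which cells of Day 7 were called neutrophil-like, with 274 cells from outside the class reported in each. The neutrophil marker *S100a9* was at 5529 and 11191 CPM in the Day 7 cells of these settings, against 16879 CPM in the cells reported. With every cell thinned to 500 UMIs, 98.7% of these cells held a *Cxcl2* UMI on Day 3 and 93.2% on Day 7, against 99.5% and 95.1% before thinning. For *Cxcl3* the thinned shares were 67.7% and 30.3%, and 74.6% and 35.6% before thinning. In dendritic cell-like cells, a class with little *Cxcl2*, the thinned *Cxcl2* shares were 9.09% and 9.39%. The *Cxcl2* shares lie near 100% and so cannot show how far the level differed.

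The neutrophil-like class was made of different clusters on the 2 early days, cluster 13 (led by *Acod1*, *S100a9* and *Ccl3*) with 793 of its 865 cells on Day 3 and cluster 8 (led by *S100a9*, *S100a8* and *Hdc*) with 1532 of its 1651 cells on Day 7. Within cluster 13, *Cxcl2* was at 45705 CPM on Day 3 and 50840 CPM on Day 7 in 119 cells, a log2 ratio of 0.15. Within cluster 8 it was at 32766 and 21908 CPM, a log2 ratio of -0.58. *Cxcl3* was lower on Day 7 in both, by -1.22 in cluster 13 and -1.86 in cluster 8, so its course held within clusters and that of *Cxcl2* did not hold in cluster 13.

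Other cells' markers moved with these values. The 10 fibroblast markers summed to 845 CPM in neutrophil-like cells on Day 3 and 10491 CPM on Day 7, none of the 10 at 0, and *Col1a1* went from 272 to 3781 CPM. The 12 macrophage markers summed to 618 and 2068 CPM. Their part in the neutrophil values was not tested. Median depths were 1230 and 711 UMIs, below those of macrophage-like cells (4050 and 2538) and fibroblast-like cells (44033 and 10265.5).

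The 3 other ligands were sparse in neutrophil-like cells. *Cxcl1* was at 596 CPM on Day 3 and 375 CPM on Day 7, with 86.6% of the Day 3 UMIs in the 5% of cells that had most, and *Cxcl5* at 55.1 and 16.0 CPM. *Ppbp* had 1 and 2 UMIs. Of the 5 members that could be compared in neutrophil-like cells, 2 (*Cxcl3* and *Cxcl5*) were at least 2-fold lower on Day 7 than on Day 3, where 7.91% of 5801 genes were lower and 19.0% higher. *Cxcl2* was past 2-fold too in the settings named above, which changed the cells called neutrophil-like. *Cxcl1* was past it, at -1.11, with a minimum of 500 genes and the same classes. The *Cxcl5* value rests on 65 and 21 UMIs, and the part of RNA from fibroblasts in it, whose markers are given above, was not tested.

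The receptor *Cxcr2*, which lets neutrophils sense all 5 ligands, had most of its UMIs in neutrophil-like cells on Days 3 and 7. In neutrophil-like cells it was at 464 CPM on Day 3 (548 UMIs), 583 CPM on Day 7 (764 UMIs) and 260 CPM on Day 14 (7 UMIs). The Day 7 and Day 3 libraries differed by 0.33 log2 units (0.17 to 0.49) and the Day 14 interval, 105 to 537 CPM, overlapped that of Day 3 (426 to 505) and ended below that of Day 7 (542 to 626). The direction between Day 7 and Day 3 was not stable. The log2 ratio was -0.14 with no doublets removed, -1.23 with a minimum of 500 genes per cell and re-made clusters, and -0.12 with that minimum and the same classes.

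The stricter minimum left 148 of the 1651 neutrophil-like cells of Day 7 where classes were kept. Where clusters were re-made, 421 cells of Day 7 were called neutrophil-like, with *S100a9* at 5529 CPM against 16879 CPM in the cells reported and *Lyz2*, a macrophage and neutrophil lysozyme, at 4853 against 728 CPM. Within clusters the *Cxcr2* intervals included no difference, at 0.20 (-0.16 to 0.55) in cluster 13 and 0.39 (-0.15 to 0.98) in cluster 8. Over all cells the lower *Cxcr2* level on Day 7 stood beside a lower share of neutrophil-like cells, 8.43% against 19.8%.

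Thinned to 500 UMIs, 19.8%, 24.7% and 14.3% of neutrophil-like cells held a *Cxcr2* UMI on Days 3, 7 and 14, and unthinned 36.8%, 33.7% and 23.8%. In fibroblast-like cells, taken as a class without the receptor, the thinned shares were 0%, 0.0334% and 0%, and in macrophage-like cells 0.0369%, 0.105% and 0%. Per 1000 UMIs of *S100a9*, an abundant neutrophil calcium-binding protein, *Cxcr2* had 20.4 UMIs in neutrophil-like and 21.3 in macrophage-like cells on Day 3, and 34.5 and 50.1 on Day 7. In fibroblast-like cells it had 52.4 and 26.9. Where the few *Cxcr2* UMIs outside neutrophil-like cells came from was not tested.

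*Cxcl1* was the main ligand of fibroblast-like cells. It was at 2971 CPM there on Day 3, 2099 CPM on Day 7 and 2875 CPM on Day 14, and 67.6%, 48.7% and 45.7% of these cells held a *Cxcl1* UMI after thinning to 500 UMIs (95.9%, 86.6% and 79.2% unthinned). The level was nearly the same on Day 3 and Day 14, with a log2 ratio of -0.05, and lower on Day 7. In dendritic cell-like cells, a class with little *Cxcl1*, the thinned values were 2.60%, 2.89% and 6.45%. Their median depths were 7189, 3061 and 4599 UMIs, against 44033, 10265.5 and 9620.5 UMIs in fibroblast-like cells.

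*Cxcl2* was higher in fibroblast-like cells on each later day, at 1069, 1450 and 1884 CPM, while the share of cells with it after thinning to 500 UMIs was 26.3%, 30.1% and 26.4%. The part of its UMIs held by the 5% of fibroblast-like cells with most was 27.8% on Day 3, 35.1% on Day 7 and 43.6% on Day 14. Which day had the highest share depended on the depth, with 42.7%, 40.1% and 33.7% after thinning to 1000 UMIs and 88.1%, 70.7% and 57.3% unthinned. *Cxcl3* was low and lower on each later day, at 169, 45.0 and 27.1 CPM.

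*Cxcl5* differed most between days of the 4 members abundant enough to compare in fibroblast-like cells. It was at 2315 CPM on Day 3, 182 CPM on Day 7 and 17.3 CPM on Day 14, and 51.3%, 5.07% and 0.475% of cells held it after thinning (92.5%, 19.9% and 2.75% unthinned). The log2 ratio was -3.67 for Day 7 over Day 3 and -3.40 for Day 14 over Day 7.

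For Day 7 over Day 3, 2 of the 4 members compared in fibroblast-like cells (*Cxcl3* and *Cxcl5*) were at least 2-fold lower, where 9.78% of 8204 genes were lower and 5.08% higher. For Day 14 over Day 7 it was 1 of 4 (*Cxcl5*), where 4.35% of 7795 genes were lower and 3.18% higher. For Day 14 over Day 3 it was 2 of 4 (*Cxcl3* and *Cxcl5*), where 22.1% of 8301 genes were lower and 8.55% higher.

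Outside fibroblasts the small *Cxcl5* signal was set beside that of collagen. Per 1000 UMIs of *Col1a1*, the collagen I gene that marks fibroblasts, *Cxcl5* had 102 UMIs in fibroblast-like cells, 172 in macrophage-like and 202 in neutrophil-like cells on Day 3. On Day 7 the values were 4.40, 6.49 and 4.24, and on Day 14 0.340 in fibroblast-like and 0.374 in macrophage-like cells. Other classes of Day 14 differed, on few UMIs. Pericyte-like cells had 2.68 (25 UMIs), Schwann cell-like 1.59 (9), endothelial cell-like 0.769 (4), dendritic cell-like 0.182 (1) and epithelial cell-like 0.0544 (2), and T cell-like and unnamed cells 0. *Cxcl1* behaved otherwise in macrophage-like cells, with 3957, 227 and 214 UMIs per 1000 *Col1a1* UMIs against 131, 50.8 and 56.6 in fibroblast-like cells.

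**Figure D4:**
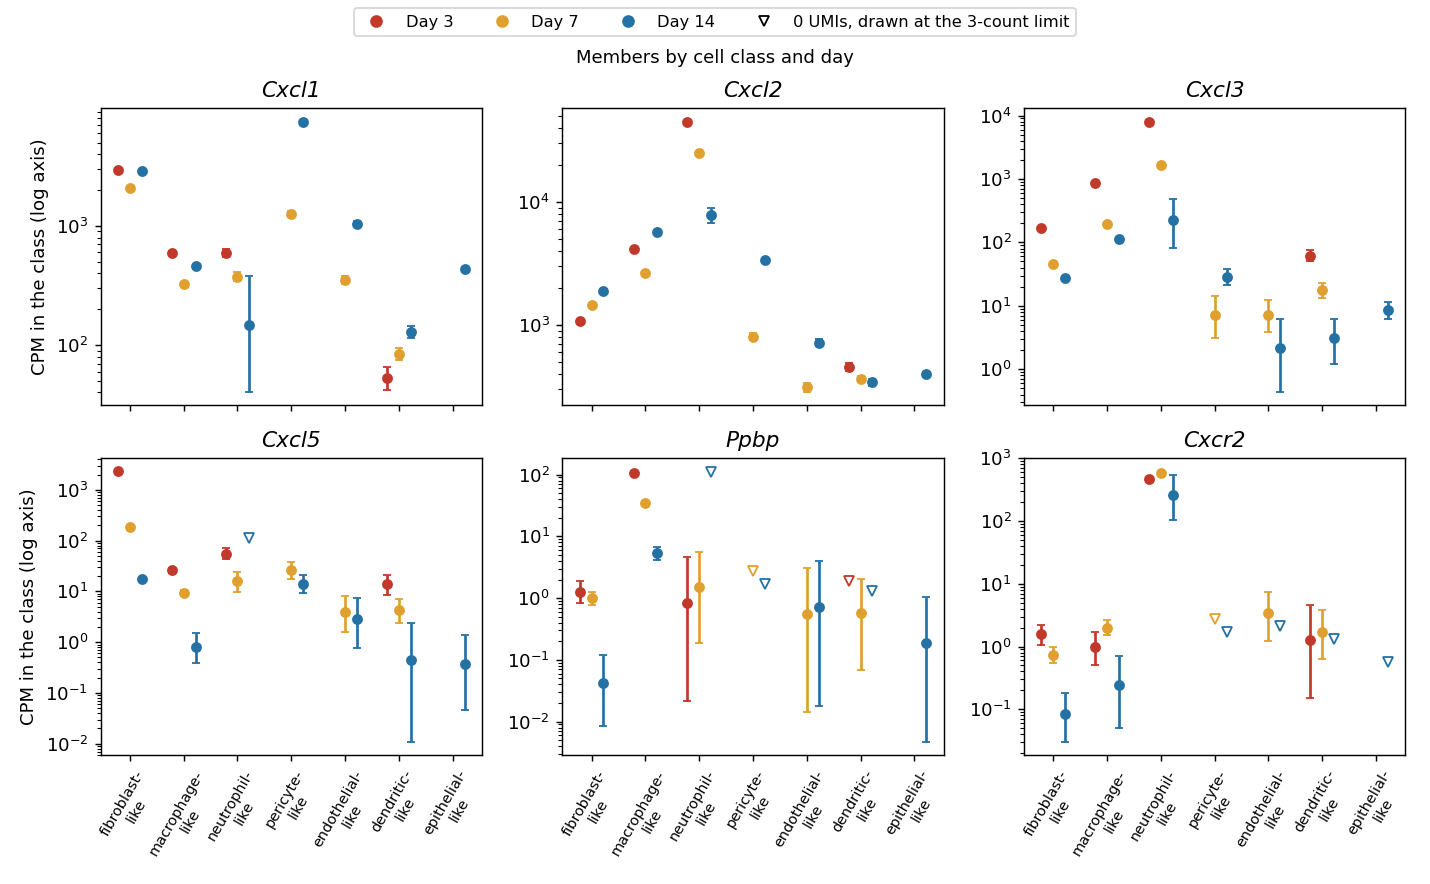
CPM of each gene by class of cells and day on a log axis, with 95% counting intervals (open triangles mark 0 UMIs, drawn at the limit that 3 counts allow, and classes under 50 cells are left out except neutrophil-like). On Days 3 and 7 *Cxcl2* and *Cxcl3* are highest in neutrophil-like, *Cxcl5* in fibroblast-like and *Ppbp* in macrophage-like cells, and on Day 14 *Cxcl1* is highest in pericyte-like cells.

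Macrophage-like cells, the largest class on Days 3 and 7, expressed mainly *Cxcl2*. It was at 4150 CPM on Day 3, 2628 CPM on Day 7 and 5701 CPM on Day 14. *Cxcl3* was at 856, 195 and 113 CPM and *Cxcl1* at 595, 325 and 462 CPM. *Cxcl2* and *Cxcl1* were thus lowest on Day 7, and *Cxcl3* highest on Day 3.

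The thinned share of macrophage-like cells with a *Cxcl2* UMI was 60.5%, 44.2% and 60.8% (84.2%, 68.4% and 79.0% unthinned), lowest on Day 7 like the level. After thinning to 1000 UMIs it was 74.2%, 56.6% and 70.5%, lower on Day 14 than on Day 3 although the level was higher. For *Cxcl3* it was 22.2%, 5.31% and 3.90%. Of 5 members compared for Day 7 over Day 3, 3 (*Cxcl3*, *Cxcl5* and *Ppbp*) were at least 2-fold lower, where 5.46% of 7596 genes were lower and 3.45% higher. *Cxcl1*, at -0.87, was also past 2-fold with a mitochondrial limit of 5% (-1.05) and with each library clustered alone (-1.08). For Day 14 over Day 7, of 4 compared, *Cxcl2* was higher by 1.12 log2 units and *Ppbp* lower at -2.72, where 2.90% of 7548 genes were at least 2-fold higher and 3.84% lower. For Day 14 over Day 3, 3 of 5 were lower, where 13.6% of 7626 genes were lower and 6.92% higher. Of these calls, *Cxcl5* in both comparisons with Day 3 (25.8, 9.30 and 0.808 CPM over the days) and *Ppbp* on Day 14 met the limit of 10 CPM only through the earlier, higher day. The *Cxcl2* value for Day 14 over Day 7 was 0.96 with no doublets removed. *Cxcl3* was at -0.79 in that same comparison. It was at -1.01 with a minimum of 500 genes, -1.14 with no doublets removed and -1.16 averaged over cells, but at 0.66 where each library was clustered alone, which redrew the macrophage class, so its direction between Day 7 and Day 14 was not stable. For Day 7 over Day 3 *Cxcl3* was at -2.14 and, with each library clustered alone, at -3.55. Markers of other cells moved in this class too. The 10 fibroblast markers summed to 426, 3900 and 5398 CPM in macrophage-like cells over the days, and the 9 neutrophil markers to 377, 240 and 62.0 CPM. The part of RNA from those cells in these values, *Cxcl5* among them, was not tested.

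*Ppbp* was found almost wholly in macrophage-like cells. It was at 108 CPM in them on Day 3, 35.1 CPM on Day 7 and 5.33 CPM on Day 14, and the thinned share of cells with it was 4.24%, 1.25% and 0.341% (10.1%, 4.54% and 1.27% unthinned). In fibroblast-like cells the thinned share was 0%, 0.0167% and 0%. On Day 3, 29 cells with at least 10 *Ppbp* UMIs held 643 of its 1336 UMIs (48.1%), and the highest cell held 91.

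Cells with a *Ppbp* UMI numbered 296, 492 and 46 over the days, and 0 of them held 2 or more of the 5 platelet markers other than *Pf4*. *Pf4*, a platelet chemokine that macrophages also express, was level in macrophage-like cells at 2445, 2535 and 2569 CPM, while 3 of the 6 platelet markers were at 0 there and the others summed to under 2 CPM. *Ppbp* was thus lower on each later day in a class in which *Pf4* was level. For Day 7 over Day 3 its log2 ratio of -1.62 was -2.68 with a minimum of 500 genes and -2.37 with no doublets removed, and for Day 14 over Day 7 the -2.72 was -1.48 and -1.83 in those settings.

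Pericyte-like and endothelial cell-like cells had more *Cxcl1* on Day 14 than on Day 7. So did fibroblast-like and macrophage-like cells, by less, with log2 ratios of 0.45 and 0.51. Pericyte-like cells, the mural cells of small vessels (176 cells on Day 7, 430 on Day 14), held *Cxcl1* at 1261 CPM on Day 7 and 7444 CPM on Day 14, a log2 ratio of 2.56 (2.48 to 2.64) and the highest level of any class on that day. The thinned share of these cells with *Cxcl1* was 34.1% and 76.0% (71.6% and 92.3% unthinned). *Cxcl2* went from 799 to 3346 CPM and *Cxcl3* from 7.27 to 28.9 CPM, the last from 8 and 51 UMIs. The 10 Day 3 cells of this class had *Cxcl1* at 1876 CPM.

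The 10 fibroblast markers summed to 18610 CPM in pericyte-like cells on Day 7 and 15321 CPM on Day 14. *Cxcl1* had 178 and 1407 UMIs per 1000 *Col1a1* UMIs there, against 50.8 and 56.6 in fibroblast-like cells. The part of fibroblast RNA in these values was not tested. Pericyte-like cells held 5.68% of all *Cxcl1* UMIs on Day 14 with 1.81% of all UMIs.

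In endothelial cell-like cells *Cxcl1* was at 353 CPM on Day 7 and 1049 CPM on Day 14 and *Cxcl2* at 311 and 719 CPM. The 10 fibroblast markers summed to 5546 and 10352 CPM there and were thus higher on Day 14 as well, and *Cxcl1* had 182 and 283 UMIs per 1000 *Col1a1* UMIs. The part of fibroblast RNA in the endothelial values was not tested. Both endothelial clusters shared the direction, cluster 22 (led by *Fabp4*, *Selp* and *Pecam1*) at 1.62 for *Cxcl1* and cluster 27, led by the lymphatic genes *Ccl21a*, *Mmrn1* and *Prox1*, at 2.51 with 51 and 50 cells. Epithelial cell-like cells, present in number only on Day 14 (755 cells), held *Cxcl1* at 434 CPM and *Cxcl2* at 396 CPM, under the fibroblast-like level of both. The fibroblast markers summed to 18515 CPM in them and *Cxcl1* had 62.8 UMIs per 1000 *Col1a1* UMIs, close to the 56.6 of fibroblast-like cells. Their 78.3% of *Cxcl1* UMIs in the top 5% of cells was the most uneven of the classes above 50 cells on that day.

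The order of the levels over classes with at least 50 cells differed by gene. On Day 14 *Cxcl1* ran from pericyte-like (7444 CPM) through fibroblast-like (2875), endothelial cell-like (1049), macrophage-like (462), epithelial cell-like (434) and Schwann cell-like (292) to dendritic cell-like (129) and T cell-like (120 CPM). The intervals of the last 2 overlapped, 114 to 144 and 73.2 to 185 CPM, and so did those of macrophage-like and epithelial cell-like cells, 450 to 474 and 416 to 452 CPM. Per 1000 *Col1a1* UMIs *Cxcl1* had 62.8 in epithelial cell-like, 31.5 in Schwann cell-like, 53.8 in dendritic cell-like and 65.6 in T cell-like cells, against 56.6 in fibroblast-like cells. The part of fibroblast RNA in these 4 levels was not tested. On Day 7 *Cxcl2* ran from neutrophil-like (25163 CPM) through macrophage-like (2628), fibroblast-like (1450), pericyte-like (799) and dendritic cell-like (361) to endothelial cell-like cells (311 CPM).

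Levels in a class also depend on which clusters fill it on a day. Of the fibroblast-like cells, cluster 7 (led by *Saa3*, *Cxcl5* and *Serpinb2*) held 240, 1932 and 53 on the 3 days and the cycling cluster 20 (*Ube2c*, *Top2a*) 160, 403 and 39. Clusters 2 (*Pi16*, *C3*), with 1746 and 1140 cells, and 10 (*Tnn*, *Acta2*), with 1308 and 91, filled Day 7 beside cluster 7, and clusters 0 (*Mgp*, *Cilp*), with 3635 cells, and 9 (*Igfbp2*, *Gal*), with 1435, filled Day 14. Few cells of Day 3 lay outside clusters 7 and 20.

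Within cluster 7, *Cxcl5* was at 2649 CPM on Day 3, 357 CPM on Day 7 and 131 CPM on Day 14. *Cxcl2* went the other way, at 1081, 2568 and 4894 CPM, and *Cxcl1* was at 3304, 3484 and 6501 CPM, the Day 14 values from 53 cells. The lower *Cxcl5* was thus also seen within 1 cluster, with a log2 ratio of -2.89 for Day 7 over Day 3, and the lower *Cxcl1* of the class on Day 7 was not, at 0.08. In the cycling cluster 20 *Cxcl5* was at -2.63, *Cxcl1* at -0.32 and *Cxcl2* at 0.44.

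On Day 7 cluster 7 held 54.8% of all *Cxcl1* UMIs, 29.5% of *Cxcl2* and 68.5% of *Cxcl5* UMIs. On Day 14 most ligand came from cluster 0, with 60.1% of *Cxcl1* and 42.4% of *Cxcl2* UMIs, although cluster 23 (led by *Col18a1* and *Ptn*, 262 cells) had higher levels, *Cxcl1* at 5883 CPM and *Cxcl5* at 156 CPM. Cluster 23 held 34.1% of the few *Cxcl5* UMIs of that day. Clusters 9 and 17, led by *Igfbp2* and by *Prlr*, were poor in *Cxcl1* at 321 and 262 CPM.

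Between Day 7 and Day 14 the fibroblast clusters present on both days differed from one another. *Cxcl1* was higher in cluster 0 by 1.48 and in cluster 2 by 1.38 log2 units and *Cxcl2* by 1.72 and 1.32, more than in the class as a whole (0.45 and 0.38). In cluster 10, led by *Tnn* and *Acta2*, *Cxcl1* was at 910 and 862 CPM, a log2 ratio of -0.08 (-0.20 to 0.04). In cluster 17 *Cxcl2* was lower at -1.73 with 66 cells on Day 7.

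**Figure D5:**
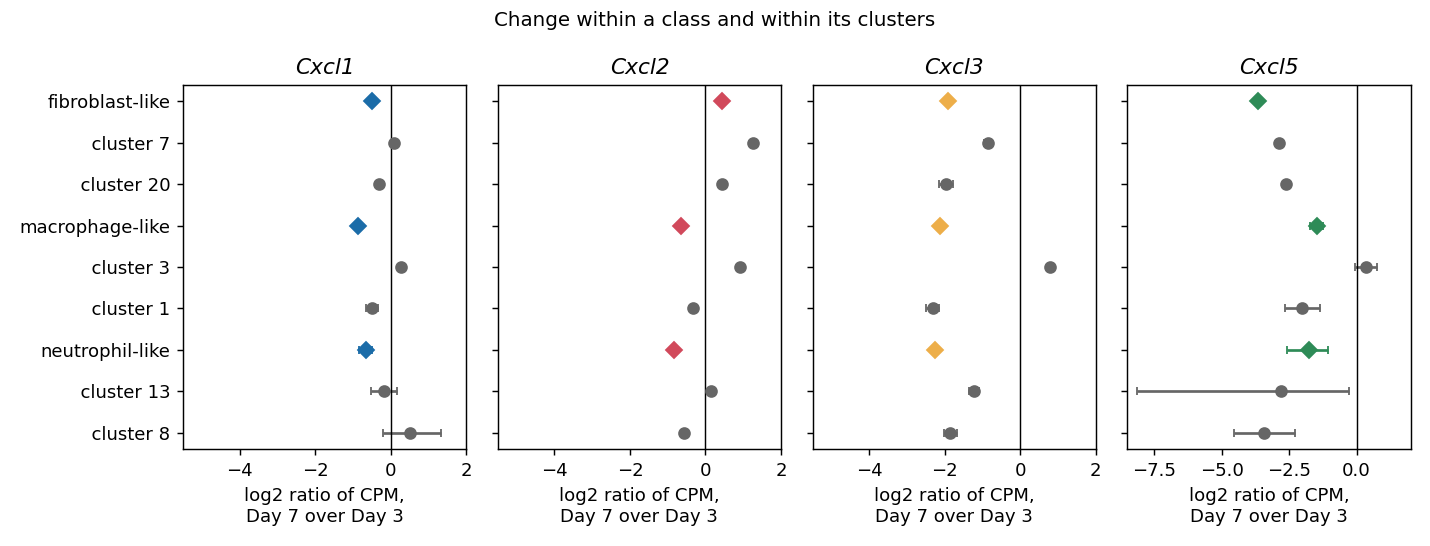
Log2 ratio of CPM, Day 7 over Day 3, for *Cxcl1*, *Cxcl2*, *Cxcl3* and *Cxcl5*, with 95% counting intervals (the *Cxcl5* panel has a wider axis). Drawn are the fibroblast-like class with clusters 7 and 20, the macrophage-like class with clusters 3 and 1 and the neutrophil-like class with clusters 13 and 8. Other clusters are not drawn. *Cxcl5* is below 0 for Day 7 over Day 3 in clusters 7 and 20 (-2.89 and -2.63), while *Cxcl2* is above 0 in cluster 7 (1.25) and cluster 3 (0.91) and below 0 in cluster 8 (-0.58).

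Macrophage-like cells were likewise spread over other clusters on each day. Cluster 3 (led by *Arg1* and *Chil3*) held 2070 of the 2711 macrophage-like cells on Day 3, 756 on Day 7 and 25 on Day 14. In it *Cxcl2* was higher on Day 7 than on Day 3, at 8717 against 4643 CPM (log2 ratio 0.91), and so was *Cxcl3*, at 1758 against 1013 CPM (0.79). The class as a whole had the reverse, -0.66 and -2.14, and its Day 7 sum also held clusters 1, 5 and 6, in which *Cxcl2* was at 2148, 1736 and 1329 CPM. Within those 3 clusters *Cxcl2* was lower on Day 7 than on Day 3, at -0.34, -0.30 and -0.35, and so was *Cxcl3*, at -2.32, -1.76 and -1.69.

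In cluster 1 (*Cd36*, *Mmp12*), which held 2918 of the Day 7 macrophage-like cells, *Cxcl3* was at 460 CPM on Day 3 in 193 cells, 92.0 CPM on Day 7 and 454 CPM on Day 14 in 65 cells, a log2 ratio of 2.30 (2.02 to 2.57) for Day 14 over Day 7, opposite in sign to the class. *Ppbp* was at 223 and 65.7 CPM there on Days 3 and 7, a log2 ratio of -1.76. In cluster 3 it went only from 104 to 74.8 CPM (-0.47, interval -0.74 to -0.22). Cluster 4 (*Slamf7*, *Ccl8*, *Mrc1*), the largest macrophage cluster of Day 14 with 1436 cells, had *Cxcl2* at 4030 CPM on Day 7 and 7875 CPM on Day 14, a log2 ratio of 0.97, and *Cxcl3* at 157 and 160 CPM. *Cxcl2* was higher on Day 14 in clusters 1, 4, 5, 6, 14 and 24, by 0.73 to 1.17, and was at -0.17 in cluster 12, whose cells were shallow.

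Some pairs of ligands were found together in single cells more often than the product of their separate shares, after thinning to 1000 UMIs. In fibroblast-like cells 39.3%, 32.7% and 28.1% of cells held both *Cxcl1* and *Cxcl2*, 1.13, 1.31 and 1.46 times the product. The Day 3 interval, 34.5% to 44.2%, included the product of 34.8%. That product comes from the same cells, and the interval does not allow for this, so the overlap cannot show that an excess was absent. For *Cxcl2* and *Cxcl5* the factors were 1.16, 1.58 and 2.48, and the Day 3 interval of 26.2% to 35.4% again included the product, 26.4%. The same limit holds for this overlap. The factor of a pair is bounded by its larger single share. For *Cxcl2* and *Cxcl5* that share was 61.7%, 40.1% and 33.7% over the days. For *Cxcl1* and *Cxcl2* in fibroblast-like cells it was 81.48%, 62.39% and 56.99%. The bound on both factors was thus also higher on each later day, and its part in their course was not tested. In macrophage-like cells *Cxcl1* and *Cxcl3* stood at 1.71, 1.95 and 1.84, while *Cxcl2* and *Ppbp* stood at 1.09, 1.12 and 0.993, the last from 7 cells with both. In neutrophil-like cells, thinned to 500 UMIs, the factors on Days 3 and 7 lay near 1. They were 1.01 and 0.999 for *Cxcl1* and *Cxcl2*, 1.02 and 1.01 for *Cxcl1* and *Cxcl3*, and 1.01 and 1.04 for *Cxcl2* and *Cxcl3*. With *Cxcl2* in 98.7% and 93.2% of these cells, its factors could not lie far above 1. The part of clusters within a class and of doublets that remain was not tested.

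Around the members, 44 genes of the same pathway were listed. Of 40 genes compared over all cells, 18 were at least 2-fold lower on Day 7 than on Day 3 and 2 were higher, with a median log2 ratio of -0.88 against -0.20 over all genes, of which 8.10% were lower and 3.88% higher. Some of these genes met the limit of 10 CPM only on the day on which they were high, *Csf3* (80.4 and 8.39 CPM) among the lower and *Ackr1* (3.57 and 15.9 CPM) among the higher. The list was made with earlier results of these data known, so this is a description. For Day 14 over Day 7, 13 of 35 were lower and 2 higher, with a median of -0.42 against -0.14 over all genes, of which 6.10% were lower and 4.25% higher. The counts of the smaller groups below are over all cells and stand beside the same shares.

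In the group listed as inducers, which also held receptors and signalling genes, 4 of 9 were lower on Day 7 (*Il1a*, *Il1b*, *Tnf* and *Il1r2*). Of these *Il1r2* is an interleukin 1 receptor, not an inducer, and was also among the markers from which neutrophil-like clusters were named. *Il1b*, which encodes a cytokine that can switch on *Cxcl1*, *Cxcl2*, *Cxcl3* and *Cxcl5*, was at 1709 CPM over all cells on Day 3, 372 CPM on Day 7 and 162 CPM on Day 14. In neutrophil-like cells it was at 17348, 6355 and 2716 CPM, and in macrophage-like cells at 2551, 720 and 756 CPM. *Tnf* was at 58.8, 17.2 and 10.5 CPM over all cells. Both were highest on Day 3 over all cells, as were *Cxcl2*, *Cxcl3*, *Cxcl5* and *Ppbp*, while *Cxcl1* was highest on Day 14. *Il1r1*, the receptor for interleukin 1, was at 157, 75.9 and 60.7 CPM in fibroblast-like cells and at 213 and 354 CPM in pericyte-like cells on Days 7 and 14.

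Among other neutrophil attractants and their receptors, 6 of 7 genes compared over all cells were lower on Day 7, when the neutrophil-like share was lower too. Within macrophage-like cells it was 3 of 7, where 5.46% of all genes were lower, and within neutrophil-like cells 4 of 7, where 7.91% were lower. *Csf3*, which encodes granulocyte colony-stimulating factor, was at 80.4, 8.39 and 8.66 CPM over all cells and at 110, 5.24 and 2.69 CPM in fibroblast-like cells. Over all cells it was thus lower on Day 7 than on Day 3, like *Cxcl5*, but level from Day 7 to Day 14, unlike *Cxcl5*. In endothelial cell-like cells *Csf3* was at 118 CPM on Day 7 and 382 CPM on Day 14. *Csf3r*, its receptor, was at 934, 762 and 484 CPM in neutrophil-like cells, and was also among the markers from which neutrophil-like clusters were named. The formyl peptide receptor *Fpr2* was at 885 and 235 CPM in neutrophil-like cells on Days 3 and 7.

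Brakes on the response were lower too, 3 of 4 (*Zfp36*, *Zc3h12a* and *Tnfaip3*) for Day 7 over Day 3 and 0 of 4 for Day 14 over Day 7. *Zfp36*, whose protein binds and destabilises short-lived mRNAs, was at 2415, 1010 and 1093 CPM. Signalling genes below the receptor showed 0 of 8 lower on Day 7, and those lower on Day 14 included *Arrb2*, *Pik3cg* and *Fgr*. The chemokine receptor *Cxcr4*, its ligand *Cxcl12* and *Ackr3*, a scavenger of that ligand, were lower on Day 7.

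Of 7 adhesion genes compared over all cells, *Selp* was the 1 at least 2-fold higher on Day 7 than on Day 3, when 2 were lower, and *Icam1* the 1 higher on Day 14 than on Day 7. *Ackr1*, a vessel receptor that binds chemokines without signalling and presents them to neutrophils, was at 3.57, 15.9 and 33.0 CPM over all cells, and at 147 and 464 CPM in endothelial cell-like cells on Days 7 and 14, although fibroblast-like cells held 2411 of its 3223 UMIs on Day 14. *Selp*, which lets leukocytes roll, was at 543 and 1125 CPM in endothelial cell-like cells. *Icam1*, which holds them fast, was at 65.3, 95.7 and 248 CPM over all cells. This was not a vessel level alone, since *Icam1* was also higher within fibroblast-like cells. Its log2 ratio there was 1.02 for Day 7 over Day 3 and 1.57 for Day 14 over Day 7. In neutrophil-like cells it was at least 2-fold lower on Day 7 than on Day 3. Of the adhesion genes on the leukocyte side, *Itgam* and *Selplg* were lower on Day 7, and those lower on Day 14 included *Itgb2*, *Itgam*, *Itgal* and *Selplg*, when neutrophil-like cells were 0.155% of cells and macrophage-like cells 23.9%, against 8.43% and 48.6% on Day 7.

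By class, fibroblast-like cells had 7 of 22 list genes lower and 3 higher on Day 7 than on Day 3, where 9.78% of all genes were lower and 5.08% higher. Macrophage-like cells had 8 of 36 lower and 0 higher, where 5.46% were lower and 3.45% higher. Neutrophil-like cells had 11 of 40 lower and 4 higher, where 7.91% were lower and 19.0% higher. The 4 were *Ackr3*, *Cxcl12*, *Pf4* and *Il1r1*, genes better known from fibroblasts and macrophages, beside the higher fibroblast markers given above. *Cxcr1*, the sister receptor, had 18, 24 and 0 UMIs over the days, and the cytokine *Il17a* 2, 5 and 14 UMIs.

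Over the 18 sums of class and day with at least 50 cells, the genes closest in pattern to each member were found among 10173 genes by Pearson's r of log2(CPM + 1). These sums share libraries, depth and cells, so r is a description. *Cxcl1* was closest to *Ccl2* (0.91), *Tbx15* (0.88) and *Il6* (0.87), and *Cxcl2* to *Alas1* (0.94), *Por* (0.93) and *Rab20* (0.90). *Cxcl3* was closest to *Lamp2*, *Dusp1* and *Thbs1* (0.93 each). *Cxcl5* was closest to *P4ha1* (0.97), *P4hb* (0.93) and *Surf4* (0.89), *Ppbp* to *Rragc* (0.91), *F7* (0.88) and *Chil3* (0.87), and *Cxcr2* to *Retnlg*, AC132455.2 and *Stfa2l1* (0.99 each). Among members, *Cxcl2* and *Cxcl3* had r = 0.87, *Cxcl1* and *Cxcl2* 0.34 and *Cxcl1* and *Cxcl3* 0.17. All 3 genes carry the motifs shown above, and any link between motif and level was not tested.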

How the data were processed

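Cells of 3 mouse skin wound libraries, 1 per day, were analysed from the deposited tables, which hold raw UMI counts per gene and barcode made by the authors with Cell Ranger 6.0.0 on mm10 (submitters' processing notes) and not normalised. Chromium 3′ v3.1 chemistry was used. Of 32285 Ensembl IDs, 32158 had a symbol. Sequences and positions are from RefSeq (GRCm38.p6), and promoters were found for 5 of the 6 members, not for *Cxcl5*.

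Minimums of 200 genes and 500 UMIs and a mitochondrial limit of 10% were applied to barcodes (4452, 21568 and 14472 passed on Days 3, 7 and 14). Doublets were scored against simulated doublets among 50 neighbours and removed up to 0.5 of a rate of 0.8% per 1000 barcodes, 92, 1978 and 962 cells, which left 4360, 19590 and 13510. Barcodes shared between libraries numbered 43, 19 and 111 for Days 3 and 7, 3 and 14, and 7 and 14. The 3 libraries were clustered together (2000 variable genes, 30 principal components, 15 neighbours, Leiden resolution 1, leidenalg 0.10.2, scikit-learn 1.9.0) without the members and the pathway list, giving 31 clusters. A cluster was named from fixed markers when at least 3 were raised and detected in 10% of its cells, no other class had more markers among its top 10 genes, and no second class reached 0.75 of the score, unless its own class had more markers in that top 10. A cluster with a median depth far below that of its libraries and no own marker in the top 10 stayed unnamed (cluster 15). Cluster 11, 1356 of the dendritic cell-like cells, was named by the exception (score 2.63 against 2.61 for macrophage). That tie-break was adjusted after clusters were seen. Unnamed cells were 115, 842 and 746.

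UMIs were summed by class and day as CPM with exact Poisson intervals. Shares have Clopper-Pearson intervals, ratios exact conditional binomial intervals (SciPy 1.17.1, 95%). A gene was compared with at least 20 UMIs in the 2 libraries together and 10 CPM in 1 of them, and called at 2-fold. With 1 library per day there was no test. Intervals were tested on simulated data. The genes named are the members, the 44 pathway genes, class markers and the 3 genes most like each member, and cluster genes only describe clusters. The members and lists were chosen with earlier results of these data known.

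Alternatives were other mitochondrial limits (5% and 20%), 500 genes, no or full doublet removal, scaling without the 50 most abundant genes, and means over cells. Clusters were also re-made at a lower and a higher Leiden resolution and with each library alone. Added after seeing the data were leaving out shared barcodes and 500 genes with classes kept. Some genes of the pathway list are not reported here by name.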

Additional observations from a re-analysis of the deposited data

Results flagged for a closer look

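*Cxcl2* moved in opposite directions in different classes of cells between the Day 3 and Day 7 libraries. Its log2 ratio of CPM, Day 7 over Day 3, was 0.44 in fibroblast-like cells, -0.66 in macrophage-like cells and -0.84 in neutrophil-like cells. The last was -1.98 with a minimum of 500 genes and -1.23 with no doublets removed, settings that changed the cells called neutrophil-like. Fibroblast markers in that class summed to 845 CPM on Day 3 and 10491 CPM on Day 7, and their part was not tested. The classes were filled by different clusters on each day, and within clusters the direction could turn: *Cxcl2* was at 0.91 in cluster 3, which held 2070 of the 2711 macrophage-like cells of Day 3, and at 0.15 in cluster 13, which held 793 of the 865 neutrophil-like cells of that day. In clusters 1, 5 and 6 of the macrophage-like and cluster 8 of the neutrophil-like cells it was lower on Day 7 like the class, at -0.34, -0.30, -0.35 and -0.58. Each value rests on 1 library per day, and the difference between the classes was not tested.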

How the results depend on the processing

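Of 33 ratios of members between days, recomputed in 395 values over all alternatives, 389 kept their direction. Settings that only re-made the clusters (other resolutions, each library clustered alone) kept the same cells. Their values over all cells therefore equal the reported ones by construction and are counted as kept. Of the 16 past 2-fold, 191 of 191 values kept it and 190 stayed past 2-fold. Of the 17 under 2-fold, 198 of 204 values kept their direction and 14 were past 2-fold. The log2 ratio of summed ligands for Day 7 over Day 3 (-1.02) was -1.11 with a mitochondrial limit of 5%, -0.997 with 20%, -0.97 with at least 500 genes, -0.98 with no doublets removed, -1.06 with full doublet removal, -0.77 without the 50 most abundant genes and -1.57 averaged over cells. For Day 14 over Day 7 (0.34) it was 0.41 with at least 500 genes, 0.32 with no doublets removed, 0.36 with full removal, 0.31 without the 50 most abundant genes, -0.23 averaged over cells and 0.45 with at least 500 genes and the same classes. *Cxcr2* in neutrophil-like cells (0.33) was -1.23 with at least 500 genes, -0.14 with no doublets removed, 0.72 without the 50 most abundant genes and -0.12 with at least 500 genes and the same classes. The neutrophil-like share for Day 7 over Day 3 (-1.24) was -1.46 with a limit of 5%, -2.41 with at least 500 genes and -3.92 with the same classes, and for Day 14 over Day 7 (-5.76) -3.66 and -3.49 in the last 2 settings. The furthest move among the ratios of members, by 1.60, was that of *Cxcr2* over all cells for Day 7 over Day 3 (-0.92), at -2.52 with at least 500 genes and the same classes. Members past 2-fold for Day 14 over Day 7 numbered 5, not 3, averaged over cells, 1 higher and 4 lower, and *Cxcl5*, *Ppbp* and *Cxcr2* among the lower met the limit on abundance only through Day 7. Beyond the composition of the classes given with *Cxcr2*, the causes were not tested. No paired analysis was possible because each day is 1 library, and for the same reason no replicate could be left out. Day 14 held 21 neutrophil-like cells, which limits every value of that class on that day.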
